A study of Mus musculus with 150 samples.

Results

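The genes examined here are 7 grouped as genes of fast-twitch skeletal muscle: Tnnt3, Tnni2, Tnnc2, Acta1, Actn3, Atp2a1 and Ckm. They were found through the annotation of the array: every probe set (a group of short oligonucleotides that together measure a transcript) that names 1 of these genes and no other was used, which gave 11 probe sets of the 12422 on the array. The study hybridised total RNA from adult wild-type inbred mice to 150 single-colour arrays, covering 24 neural tissues and 10 body tissues. Each body tissue (skeletal muscle, heart, brown adipose tissue, white adipose tissue, thymus, adrenal, spleen, liver, kidney and testes) has 5 arrays, with 129, B6, DBA, AJ and C3H mice giving 1 each. The neural tissues have 3 to 7 usable arrays each, from strains 129 and B6 and, in 5 tissues, DBA; motor cortex has no 129 array, entorhinal and perirhinal cortex have no B6 array and retina has B6 alone. No animal was treated, the labels name no transgene, and age, sex and the muscle that was dissected are not given. They also do not say whether arrays came from separate animals, so p-values measure the spread between these samples, which may be partly technical. In bulk tissue, fewer cells of a type and less RNA per cell cannot be told apart.

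Striated muscle shortens when myosin heads pull on actin filaments, and calcium switches this on through troponin, a complex of a tropomyosin-binding subunit (troponin T), an inhibitory subunit (troponin I) and a calcium-binding subunit (troponin C). Fast-twitch and slow-twitch fibres, and the heart, use different genes for many of these proteins, and the fast forms are encoded by Tnnt3, Tnni2 and Tnnc2. Acta1 encodes the actin of skeletal muscle filaments, Actn3 encodes alpha-actinin-3, which anchors those filaments at the Z-disc of fast fibres, Atp2a1 encodes SERCA1, the pump that returns calcium to the sarcoplasmic reticulum of fast fibres, and Ckm encodes the muscle creatine kinase, which regenerates ATP. Many such genes are switched on by MyoD-family factors, which bind short E-box sequences, and Acta1 is a textbook target of serum response factor, which binds CArG boxes.

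RefSeq promoter sequences on GRCm38.p6 were at hand for 4 of the 7 genes, Tnnc2, Atp2a1, Acta1 and Ckm, each as 250 bases before and 50 bases after the annotated start. The promoters of Acta1 (chr8:123894726-123895025, minus strand) and Atp2a1 (chr7:126463024-126463323, minus strand) are shown, because Atp2a1 had the largest difference between muscle and other tissues and Acta1 the broadest signal outside muscle. Capitals mark each E-box, CANNTG, which reads the same on both strands.
Acta1: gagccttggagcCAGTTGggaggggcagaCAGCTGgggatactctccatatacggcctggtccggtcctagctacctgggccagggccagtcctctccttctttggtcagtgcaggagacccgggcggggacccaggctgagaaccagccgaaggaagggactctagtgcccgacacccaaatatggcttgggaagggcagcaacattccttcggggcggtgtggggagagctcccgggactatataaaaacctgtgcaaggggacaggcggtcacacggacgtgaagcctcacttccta
Atp2a1: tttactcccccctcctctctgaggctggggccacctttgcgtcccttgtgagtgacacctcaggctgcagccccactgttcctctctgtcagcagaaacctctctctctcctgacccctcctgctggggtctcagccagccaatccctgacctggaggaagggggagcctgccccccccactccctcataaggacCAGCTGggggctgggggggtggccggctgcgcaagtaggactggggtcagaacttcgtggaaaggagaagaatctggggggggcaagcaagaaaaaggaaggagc
Counted from the start, the Acta1 window holds 2 E-boxes with first bases at -238 and -221, a CArG box at -73 and the letters TATAAA at -7 (both strands searched), none of them overlapping. The Atp2a1 window holds 1 E-box, at -55. Tnnc2 (chr2:164779685-164779984, minus strand) has 2, at -183 and -88, and Ckm (chr7:19410844-19411143, plus strand) has 1, at -249. An E-box is present in 72.3% of 32851 mouse promoters of the same length, a CArG box in 1.63%, TATAAA in 13.6% and a MEF2 site, found in none of the 4, in 3.19%, so the E-boxes alone do not set these promoters apart.

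Every intensity below is the linear value in the deposited table, and strains are listed in the order 129, B6, DBA, AJ and C3H throughout. Values below 10.4, the 20th percentile of the whole table, were set to that floor for fold changes and tests. Of the 11 probe sets, 9 passed a filter that keeps probe sets brighter than the overall median in at least 1 body tissue, and all 7 genes kept at least 1. The other 2, Tnnc2 93259_at and Ckm 160175_at, reached at most 34.8 and 54.8 on any array, muscle included, and they carry no information on their genes here. The paired probe sets of Tnnc2 had a Pearson correlation of 0.06 over 148 arrays and those of Ckm 0.055, against 0.922 for Atp2a1 and 0.907 for Actn3, with tissue and library shared by the points. Probe sets ending in _f_at share sequence with related genes by design, and the only informative probe sets of Tnnc2 and Ckm are of this kind. Levels are compared within a probe set only.

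Skeletal muscle was the brightest of all 34 tissues for each of the 9 probe sets, and in each of them its 5 arrays lay above every array of the next tissue. All 9 also ranked among the 100 brightest probe sets on each of the 5 muscle arrays. Tnnt3 read 12483, 13269, 14875, 10784 and 13563 in muscle, a mean of 12995 ± 1507 (SD, n = 5). Tnni2 read 5176, 4865, 5492, 4171 and 4777, and Tnnc2 read 6633, 8111, 9169, 5811 and 7448. All 3 troponins were therefore lowest on the AJ array and highest on the DBA array. Acta1 read 13595, 17057, 19989, 12038 and 17400, a mean of 16016 ± 3181 (SD, n = 5), and had the largest highest-over-lowest ratio of the 9, 1.66. Actn3 read 11472, 11667, 14817, 9052 and 12440 with 100879_at, and 5060, 5168, 5193, 4010 and 4914 with 162164_f_at. The 2 probe sets of Actn3 again placed AJ lowest and DBA highest. Atp2a1 read 13989, 14642, 17765, 12863 and 14450 with 162223_f_at and 15725, 14509, 17818, 15344 and 17453 with 98126_s_at. Ckm read 5721, 5924, 6472, 4763 and 6591. AJ was the lowest muscle array in 8 of the 9 probe sets and DBA the highest in 8, with a highest-over-lowest ratio of 1.23 to 1.66.

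**Figure D1:**
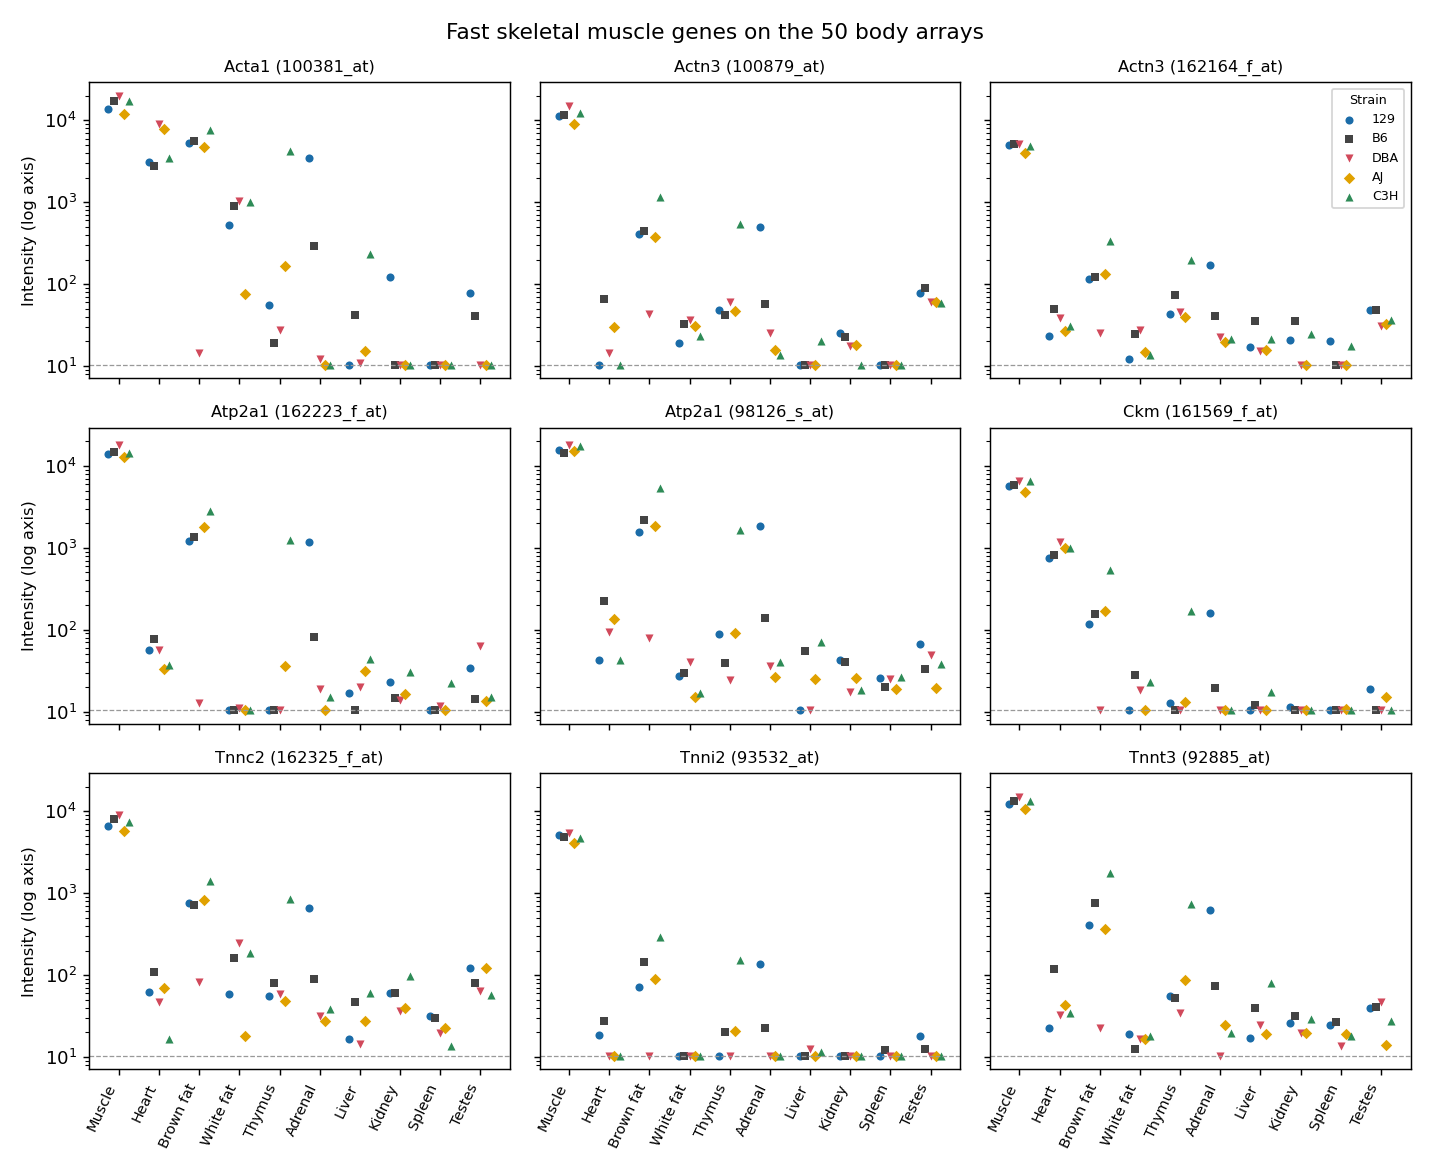
Intensity (log axis) of the 9 informative probe sets on the 50 body arrays, 1 panel per probe set, with 1 point per array coloured by strain and a dashed line at the floor of 10.4. The 5 muscle points sit highest in every panel, brown adipose tissue has 4 raised points and 1 low DBA point, and single C3H thymus and 129 adrenal points stand above the others of their tissue.

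Against the mean of the other 9 body tissues, all 9 probe sets were higher in muscle with limma (adjusted p 0.05 and a log2 difference of 1), where 12.9% of the 8921 probe sets tested were called higher. Atp2a1 162223_f_at had the largest difference, 8.74 ± 0.75 (SE) on the log2 scale (427-fold, adjusted p = 1.77e-13). Tnnt3 differed by 8.24 ± 0.54 (adjusted p = 3.87e-17) and Tnni2 by 8.22 ± 0.41. Tnnc2 had the smallest difference, 6.64 ± 0.52 (99.9-fold, adjusted p = 1.03e-14). Acta1, with its signal in heart and fat described below, differed by 7.11 ± 0.96 (adjusted p = 2.27e-08). Because many values outside muscle lay at the floor, these differences depend on where the floor is set. Of the wider list of other fast fibre genes, 19 of 21 tested were higher in muscle and none lower, with a median difference of 5.37, led by Myh1 (7.98), a fast myosin heavy chain, Pygm (7.41), muscle glycogen phosphorylase, Myoz1 (7.37), a Z-disc protein, and Mylpf (7.26), a fast myosin light chain. Muscle genes used by all fibre types were higher in 32 of 35 (median 3.86) and slow fibre genes in 7 of 10 (median 2.64). The 14 cardiac genes split, with Actc1, the cardiac actin, higher in muscle and 4 others lower.

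Heart, the other striated organ, kept strong signals of Acta1 and Ckm but little of the remaining 5 genes. The signals of Acta1 and Ckm were therefore not confined to skeletal muscle, although both are counted among the fast genes throughout. Acta1 read 3102, 2799, 9019, 7817 and 3458 in heart, so the DBA and AJ arrays stood well above the other 3, and all 5 lay below every muscle array. Ckm read 748, 826, 1186, 984 and 1005, a tight group between the muscle arrays and every other tissue. As a share of the same probe set's muscle mean, heart Acta1 came to 32.7% ± 18.4 and heart Ckm to 16.1% ± 2.89 (SD, n = 5), while the other 7 probe sets averaged 0.22% to 0.821%. Tnnt3 in heart read 23.0, 118, 32.7, 43.7 and 34.9, with the B6 array alone raised. Atp2a1 98126_s_at read 42.9, 222, 94.2, 134 and 43.1.

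In heart against muscle, 8 of the 9 probe sets were lower, where 8.43% of all probe sets tested were called lower. On the log2 scale the differences were -9.20 and -7.21 for Actn3, -8.42 for Tnni2, -8.26 for Tnnt3, -8.20 and -7.52 for Atp2a1 and -7.15 for Tnnc2. Ckm differed by -2.64 ± 0.61 (adjusted p = 0.000545). Acta1 differed by -1.77 ± 1.29 (adjusted p = 0.293) and was not called, with all arrays or with any 1 of the 10 arrays left out, although the 2 groups of arrays did not overlap. Against the mean of 4 reference organs (spleen, liver, kidney and testes), heart was higher for 3 probe sets, where 16.0% of all were higher: Acta1 by 8.02 ± 1.02 (259-fold, adjusted p = 4.88e-09), Ckm by 6.37 ± 0.49 (82.4-fold, adjusted p = 4e-15) and Atp2a1 98126_s_at by 1.65 ± 0.67 (adjusted p = 0.029). For Acta1 and Ckm many reference values lay at or near the floor, so their folds depend on where it is set. The Atp2a1 call was lost when the AJ, B6 or DBA heart array was left out.

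Related genes of the same families differed among themselves. Of 18 paralogues tested, 8 were higher in heart than in muscle, where 8.01% of all probe sets were higher, 2 were lower and 8 were not called. The cardiac troponins I and T, Tnni3 and Tnnt2, rose by 9.64 and 7.65 on the log2 scale, the slow and cardiac calcium pump Atp2a2 by 5.06 ± 0.43, and the slow and cardiac troponin C, Tnnc1, by 5.05 ± 0.59. Slow troponin I, Tnni1, went the other way at -2.73 ± 0.49 (adjusted p = 1.31e-05). Of the other fast fibre genes 15 of 21 were lower in heart. Actn2 (1.32), the alpha-actinin shared with heart, and a Myh4 probe set (1.41) went against that direction. This Myh4 probe set was not called in muscle against the other tissues. It read 29.8 to 79.7 in muscle and 82.6 to 184 in heart, so it does not show Myh4 itself to be higher in heart. The Myh4 values given below for single arrays come from a different probe set.

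Brown adipose tissue was the next brightest tissue after muscle for 7 of the 9 probe sets, and for Acta1 and Ckm it came behind heart. The second and the third tissue overlapped in their arrays for 8 of the 9 and were apart for Ckm, and all later neighbours down to the sixth overlapped. Among those later tissues, testes read 58.3 to 91.0 for Actn3 100879_at with no array at the floor. In brown fat Acta1 read 5348, 5655, 14.4, 4750 and 7611, which put 4 arrays within the range of heart and the DBA array near the floor. Atp2a1 read 1223, 1365, 12.9, 1780 and 2838 with 162223_f_at and 1563, 2158, 79.6, 1837 and 5368 with 98126_s_at. Tnnt3 read 408, 752, 22.7, 369 and 1780, Tnnc2 read 766, 722, 81.8, 820 and 1411, and Tnni2 read 72.4, 147, -0.5, 89.0 and 289. The fast troponins thus followed the same order at the ends, C3H highest and DBA lowest. Actn3 100879_at read 415, 451, 43.8, 377 and 1174, Actn3 162164_f_at read 116, 123, 25.1, 134 and 337, and Ckm read 118, 156, 3.1, 167 and 539. C3H was the highest and DBA the lowest brown fat array in all 9 probe sets. The ratio of the highest to the lowest array was 13.4 to 529 across the probe sets, and 1.6 to 4.82 without the DBA array.

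**Figure D2:**
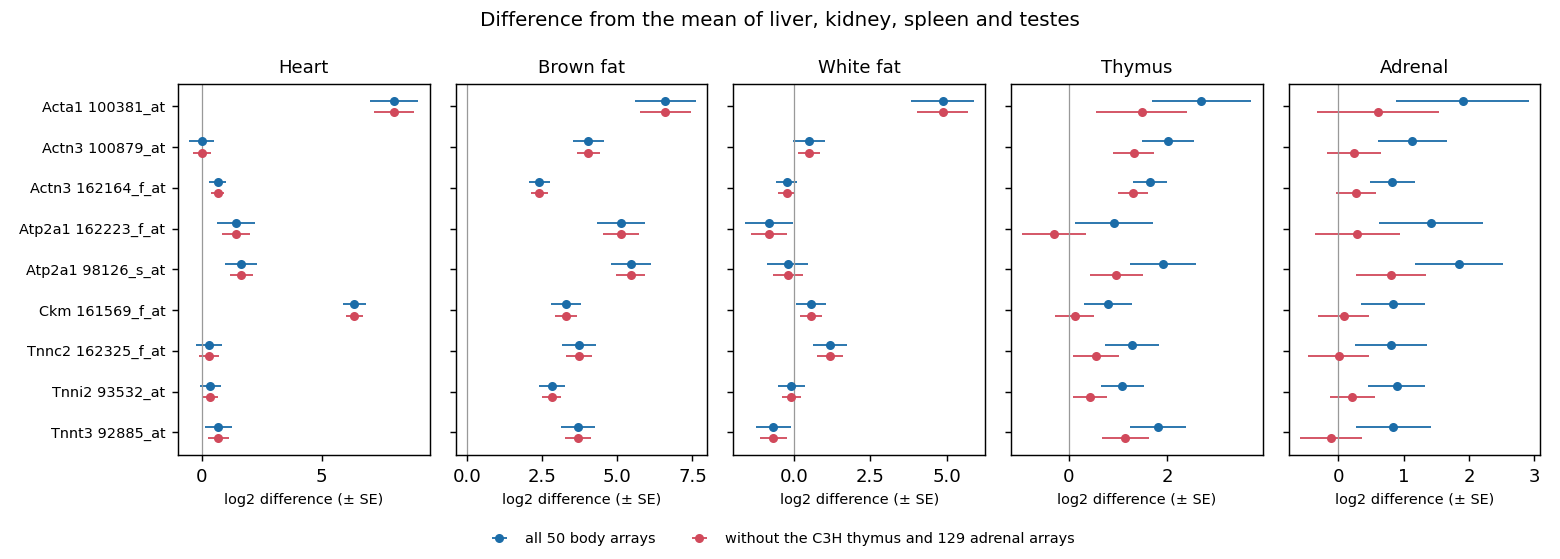
Difference in log2 intensity ± SE of heart, brown adipose tissue, white adipose tissue, thymus and adrenal against the mean of 4 reference organs, for the 9 probe sets, with all 50 body arrays (blue) and without the C3H thymus and 129 adrenal arrays (red). Brown fat lies above 0 for all 9 with both sets of arrays, while the thymus and adrenal points move towards 0 when the 2 arrays are left out.

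Against the 4 reference organs all 9 probe sets were higher in brown fat, where 15.6% of all probe sets were higher, and all 9 were called with each of 25 arrays left out in turn. Acta1 was higher by 6.60 ± 1.02 (97.2-fold, adjusted p = 3.27e-07), Atp2a1 by 5.45 and 5.12, Actn3 by 4.04 and 2.41, Tnnc2 by 3.73, Tnnt3 by 3.70, Ckm by 3.29 and Tnni2 by 2.82. Many reference values of Acta1, Ckm and Tnni2 lay at the floor, so the sizes of their differences depend on where it is set. Against white fat 8 of 9 were higher, where 12.6% of all probe sets were. Atp2a1 differed by 5.93 ± 1.01 (adjusted p = 4.3e-06) with 162223_f_at, where 4 of 5 white fat arrays lay at the floor, so no fold is given. With 98126_s_at it differed by 5.64 ± 0.85. Tnnt3 differed by 4.37 ± 0.72 (20.7-fold, adjusted p = 2.73e-06), Actn3 by 3.54 and 2.64, Ckm by 2.74 (adjusted p = 0.000264) and Tnnc2 by 2.54 (adjusted p = 0.00236). Tnni2 differed by 2.90 (adjusted p = 2.92e-05), with all 5 white fat arrays and the DBA brown fat array at the floor, so this difference is set by the floor on both sides and no fold is given. Acta1 differed by 1.74 ± 1.29 (adjusted p = 0.266), and by 3.33 (adjusted p = 0.0201) without the DBA brown fat array.

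Other muscle genes differed in the same direction between the fat depots. Of the other fast fibre genes 18 of 21 were higher in brown than in white fat (median 2.01) and 1 was lower, Tpm1 (-1.76), a tropomyosin also made by smooth muscle. Slow fibre genes were higher in 8 of 10 (median 2.73), led by Myl2 (4.75), Myh7 (3.97), Tnnc1 (3.60) and Myl3 (3.17), the light and heavy chains and the troponin C of slow fibres and heart. Markers of brown fat cells were higher in 7 of 7 and smooth muscle genes were lower in 6 of 7, where 12.1% of all probe sets were lower. On the DBA brown fat array, where the fast genes were lowest, the summed intensity of 7 brown fat markers was 25454, against 17913 to 22273 on the other 4. The part that muscle tissue in the dissected fat has in these values was not tested.

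The DBA brown fat array, the C3H thymus array and the 129 adrenal array stood apart from the other 4 arrays of their tissues, and since they were picked by these values the following is a description. On the DBA brown fat array all 9 probe sets were at least 4-fold below the median of the other 4, as were 0.539% of all probe sets. Of the 15 largest such drops, 5 were members: Acta1 (-8.57 on the log2 scale), both Atp2a1 probe sets (-6.92 and -4.64), Tnnt3 (-4.61) and Ckm (-3.95). The others included Myh4 (-6.63), Myh1 (-5.24), Pygm (-4.89) and Pvalb, fast fibre genes, Myh7 (-4.93) and Tnnt1, slow fibre genes, Cox6a2 and Ckmt2, mitochondrial proteins of muscle, and a probe set annotated to both H19 and Mir675. None of the 7 brown fat markers was 4-fold lower, and their median difference was 0.53 on the log2 scale.

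The C3H thymus array carried all 9 probe sets at least 4-fold above the median of the other 4 thymus arrays, as did 0.499% of all probe sets. Acta1 read 56.0, 19.3, 27.3, 169 and 4235 in thymus, and Atp2a1 read 7.3, 7.8, 3.7, 36.0 and 1258 with 162223_f_at and 88.2, 39.5, 24.5, 91.6 and 1672 with 98126_s_at. Tnnt3 read 56.5, 53.4, 34.1, 86.9 and 751, Tnni2 read 1.9, 20.1, 2.5, 21.1 and 155, and Tnnc2 read 55.0, 81.1, 59.3, 48.5 and 862. On the other 4 arrays no troponin read above 86.9. Actn3 read 48.6, 42.5, 61.5, 47.6 and 544 with 100879_at and 43.0, 74.4, 45.8, 40.1 and 200 with 162164_f_at, and Ckm read 12.8, -31.3, 9.6, 13.2 and 168. Among the 15 largest differences on this array were also Myh4 (6.36, intensity 1689), Myh1 (6.20, 764), Myl1 (5.48, 2617), Mb (5.50), the oxygen store myoglobin, Myl2 (4.39), Ckmt2, Ryr1, the calcium release channel of muscle, Pygm and Pvalb, and Pdxdc1 (4.59) and Hbegf (4.08), which were on no muscle list. Other fast fibre genes were 4-fold higher in 10 of 22, slow fibre genes in 3 of 10 and cardiac genes in 2 of 14. None of 11 thymocyte genes was 4-fold off, and their summed intensity was 12333 on the C3H array and 12479 to 14454 on the others.

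The 129 adrenal array did the same in its tissue, with all 9 probe sets at least 4-fold higher, as were 0.386% of all probe sets. Acta1 read 3455, 295, 12.1, 4.6 and 8.3 in adrenal, Atp2a1 98126_s_at read 1871, 138, 35.9, 26.8 and 40.5, and Atp2a1 162223_f_at read 1164, 82.3, 18.7, 7.6 and 15.2. Tnnt3 read 630, 73.1, 8.1, 24.5 and 19.5, Tnni2 read 138, 23.0, -2.0, 1.5 and -0.3, and Tnnc2 read 668, 89.0, 32.2, 27.6 and 38.8. The B6 adrenal array was the next highest for all of these, and there 2 probe sets exceeded 4-fold, as did 0.499% of all. Actn3 100879_at read 495, 57.1, 25.4, 15.7 and 13.6, Actn3 162164_f_at read 172, 41.2, 22.4, 19.6 and 21.5, and Ckm read 159, 19.3, 0.9, -0.8 and 7.1. The leading genes outside the 7 were Myh4 (7.12, intensity 1511), Myh1 (5.89, 616), Ckmt2 (4.42), Pvalb (4.40), Mb (4.28), Pgam2 (4.16), the muscle phosphoglycerate mutase, Cox6a2 (4.00), and a probe set on no muscle list that is annotated to both Gm2036 and 1810037I17Rik (4.04). Counted in the same way, other fast fibre genes were 4-fold higher in 7 of 22, slow fibre genes in 1 of 10, and none of 9 adrenal genes. The adrenal genes summed to 25668 on this array and 21293 to 25914 on the others, and brown fat markers to 6972 against 5889 to 7261.

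**Figure D3:**
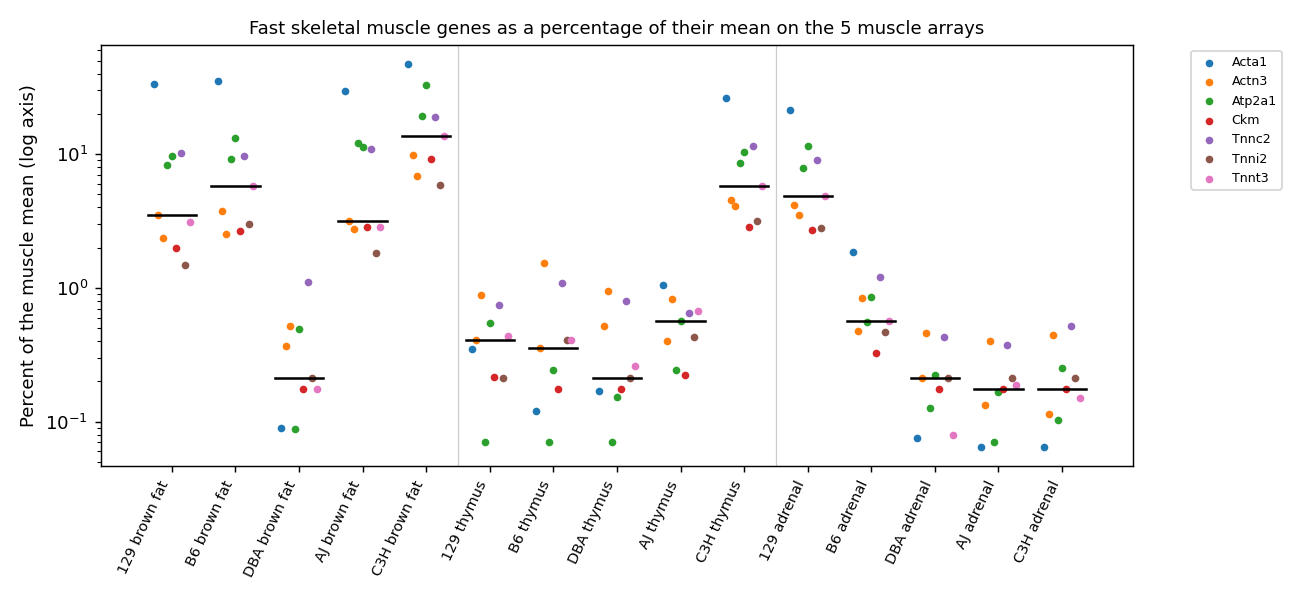
Intensity of each probe set as a percent of its own mean on the 5 muscle arrays (log axis), for the 15 arrays of brown adipose tissue, thymus and adrenal, with points coloured by gene and bars at the median of 9 probe sets. The C3H thymus (median 5.78%) and 129 adrenal (4.85%) arrays lie near the 129, B6 and AJ brown fat arrays on the deposited scale. The DBA brown fat array (0.212%) lies near the lowest of the remaining thymus and adrenal arrays, where medians of 0.176% and 0.212% are set by the floor.

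Scaled to muscle, the 9 probe sets had a median of 5.78% on the C3H thymus array, from 2.85% for Ckm to 26.4% for Acta1. On the 129 adrenal array the median was 4.85%, again from Ckm (2.70%) to Acta1 (21.6%). Brown fat medians were 3.49%, 5.79%, 0.212%, 3.17% and 13.7%, a mean of 5.27%. With quantile normalization the median rose to 11.5% on the C3H thymus array and 8.6% on the 129 adrenal array, and the brown fat mean to 7.86%, so these shares depend on the scaling. The other 4 thymus arrays had medians of 0.212% to 0.567%, the B6 adrenal array 0.563% and the remaining adrenals 0.176% to 0.212%. Medians of 0.176% and 0.212%, including that of DBA brown fat, are the floor itself for Ckm and Tnni2 and not measured shares. Acta1 had the highest share on the C3H thymus and 129 adrenal arrays and on every brown fat array except DBA. Over the 5 brown fat arrays its mean share was 29.2% ± 17.6 (SD, n = 5), against 13.6% ± 12.0 and 9.79% ± 6.92 for Atp2a1, 10.2% ± 6.34 for Tnnc2, 5.13% ± 5.19 for Tnnt3, 4.14% ± 3.49 and 3.02% ± 2.36 for Actn3, 3.36% ± 3.40 for Ckm and 2.48% ± 2.15 for Tnni2. Probe set by probe set, the C3H thymus array was 0.16 log2 above the 129 adrenal array on average (SD 0.15 over 9 probe sets), higher for 8 of 9. It was 1.12 (SD 0.37) below the C3H brown fat array and 3.96 (SD 1.03) below the C3H muscle array. For 17 other fast fibre genes with a muscle mean of at least 1000, the median share of muscle was 5.13% on the C3H thymus array, 6.33% on the 129 adrenal array, and 5.73%, 6.98%, 1.18%, 4.10% and 13.8% in brown fat. Whether bright probe sets were compressed at the top of the scale, which would raise their shares, was not tested.

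As tissues, thymus and adrenal rested on these single arrays to different degrees. Thymus was above the 4 reference organs for 7 of the 9 probe sets, where 15.7% of all probe sets were: Acta1 by 2.70 (adjusted p = 0.0189), Actn3 by 2.02 (adjusted p = 0.000884) and 1.65 (adjusted p = 6.72e-05), Atp2a1 98126_s_at by 1.92 (adjusted p = 0.0114), Tnnt3 by 1.82 (adjusted p = 0.0053), Tnnc2 by 1.28 (adjusted p = 0.0388) and Tnni2 by 1.09 (adjusted p = 0.0278). Without the C3H thymus array 2 were called, and without both that array and the 129 adrenal array 3 were: the 2 Actn3 probe sets, 1.32 (adjusted p = 0.00528) and 1.30 (adjusted p = 0.000334), and Tnnt3, 1.15 (adjusted p = 0.0342). The calls of Acta1 and Tnni2 were also lost without the AJ thymus array, and that of Tnnc2 without the DBA thymus, C3H spleen, 129 liver or C3H testes array. With the floor at 32.75, 3 of the 7 calls were left: Tnnt3, Atp2a1 98126_s_at and Actn3 100879_at. Adrenal was higher for Atp2a1 98126_s_at alone, by 1.85 ± 0.67 (adjusted p = 0.0164), where 12.6% of all probe sets were higher, and that call was lost without the 129 array. Leaving out the C3H adrenal array instead gave 7 called probe sets, and leaving out the AJ array gave 3. Acta1 in adrenal differed by 1.90 ± 1.02 (adjusted p = 0.104).

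Smaller groups of probe sets stood apart on other arrays, again measured against the median of the other 4 arrays of the tissue. Acta1 and Tnnc2 were at least 4-fold lower on the AJ white fat array, as were 1.47% of all probe sets, Acta1 and Tnnt3 on the DBA adrenal array, as were 0.129%, and Acta1 and Atp2a1 98126_s_at were 4-fold higher on the C3H liver array, as were 0.217%. In liver Acta1 read 3.6, 41.8, 11.0, 15.4 and 233, and Tnnt3 on the C3H array read 80.8.

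The titles carry a number for each sample whose meaning is not given. The C3H thymus and C3H muscle titles share theirs, and so do those of DBA thymus and muscle and of B6 thymus and muscle, where no such thymus signal was seen. The source of the signal on the C3H thymus and 129 adrenal arrays was not tested.

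The slow troponins allow a comparison with the fast ones on the same arrays, although these genes were looked at after their values were seen. In muscle, Tnnt1, the slow troponin T, read 1194, 470, 374, 4189 and 91.7, a 45.7-fold range on the arrays over which Tnnt3 varied 1.38-fold. Tnni1, the slow troponin I, read 588, 211, 133, 1464 and 68.2, and Tnnc1 read 754, 203, 132, 1599 and 41.9. For 6 of 6 slow genes (Tnnt1, Tnni1, Tnnc1, Myh7, Myl2 and Myl3) the AJ muscle array was highest and the C3H array lowest, and Myl2 spanned 109-fold. AJ, the highest array for the slow genes, was the lowest for 8 of the 9 fast probe sets. In brown fat C3H was the highest array for the slow genes as well, with Tnnt1 at 148, 340, 33.8, 617 and 1579 and Tnni1 at 135, 336, 112, 229 and 1133. On the C3H thymus array Tnnt1 read 105, against 42.7 to 84.6 on the other thymus arrays, and on the 129 adrenal array it read 3.3, below the floor. Slow troponin I lay just above the other arrays of its tissue on both, at 56.3 against 42.1 to 54.6 in thymus and 63.7 against 43.9 to 57.4 in adrenal. Other slow genes were raised: on the C3H thymus array Tnnc1 read 51.8 (2.32 log2 above the median of the other 4), Myh7 60.1 (2.42) and Myl2 240 (4.39), and on the 129 adrenal array Myl2 read 55.0 (2.40).

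**Figure D4:**
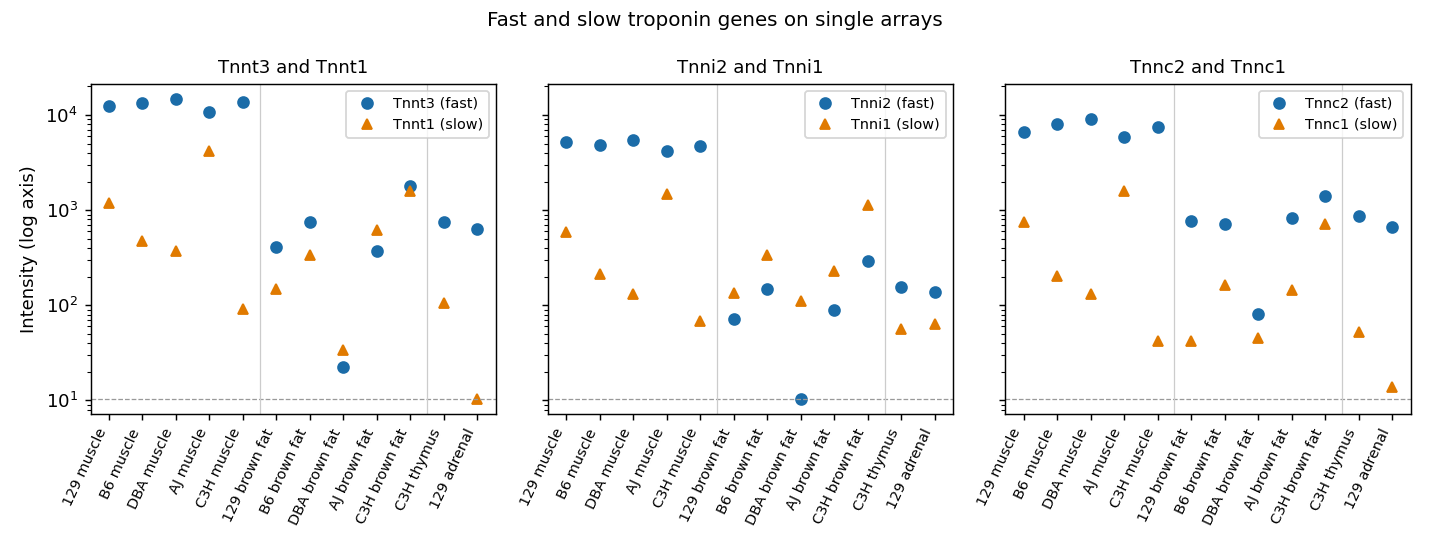
Intensity (log axis) of the fast and slow forms of troponin T, I and C on 5 muscle arrays, 5 brown adipose tissue arrays, the C3H thymus array and the 129 adrenal array. The fast forms are nearly level across the muscle arrays while the slow forms run from the AJ array down to the C3H array; levels of different genes are not comparable with each other.

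White adipose tissue carried Acta1 with little signal of most other fast genes. Acta1 read 524, 898, 1037, 76.1 and 1007 there, with the AJ array far below the other 4. Atp2a1 162223_f_at lay between -2.3 and 11.0, Tnnt3 between 12.4 and 19.4, and Tnni2 at the floor on all 5. Against the reference organs, Acta1 was higher by 4.86 ± 1.02 (29-fold, adjusted p = 6.92e-05) and was the only probe set called, where 14.2% of all were higher. This fold too depends on the floor, at which many reference values lay. Tnnc2 read 59.2, 162, 245, 18.0 and 189 and differed by 1.19 ± 0.55 (adjusted p = 0.057), and it was called without the AJ or the 129 white fat array, without the AJ testes array, or without the C3H thymus and 129 adrenal arrays together (adjusted p = 0.0143). Smooth muscle genes moved with Acta1 across these arrays. Actg2, a smooth muscle actin, read 1351, 2862, 3054, 167 and 3141, and Myh11, the smooth muscle myosin heavy chain, read 1287, 2428, 2834, 357 and 3013. All 7 smooth muscle genes tested were higher in white fat than in the reference organs, and their summed intensity was 6108, 12241, 12241, 2030 and 13697. Their part in the Acta1 value, including cross-hybridisation between actins, was not tested.

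In the 24 neural tissues the 7 genes were low, and on the 98 arrays used the brightest Acta1 value was 2.48% of its muscle mean. Acta1 ranged from -11.2 to 398 with a median of 41.3, and 25 arrays lay at the floor. Tnni2 lay at the floor on 78 of the 98 arrays and Ckm on 71. Of the 9 probe sets, 4 passed the filter in neural tissue (Acta1, Tnnc2 162325_f_at, Tnnt3 and Atp2a1 98126_s_at), and 14 of their contrasts of a tissue against the other 23 were called, where 3.99% of all 204024 such contrasts were higher and 3.35% lower.

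Of those 14 calls, 13 were Acta1, which was higher in 6 tissues, all of the forebrain, and lower in 7 others. It was higher in motor cortex by 1.86 ± 0.27 (adjusted p = 1.58e-08), with 4 arrays at 98.1 to 121, in hippocampus CA1 by 1.38 (adjusted p = 7.85e-09, 46.4 to 109 over 7 arrays), in cortex by 1.36 (adjusted p = 5.08e-06, 65.5 to 89.8), and in whole hippocampus and CA3 by 1.12 and 1.11. It was also higher in hypothalamus by 1.57 ± 0.25 (adjusted p = 2.42e-07). It was lower in pituitary, medulla and choroid plexus by 1.62 each, where all 4 arrays lay at the floor, and in cerebellum, pons, retina and inferior colliculi. These levels lie close to the floor: with the floor moved up to 32.75, 1 call of the 14 was left. The CA3 call was lost without 1 DBA array (0.97) and the inferior colliculi call without either of 2 arrays. The 14th call was Tnnt3 in retina, higher by 1.15 ± 0.25 (adjusted p = 2.31e-05) with arrays at 45.9 to 81.1.

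The hypothalamus call rested on 1 array of strain 129. Acta1 read 398 and 66.7 on the 129 hypothalamus arrays and 50.5 and 42.7 on the B6 arrays, and without the first the difference was 0.87 (adjusted p = 0.00284), under the threshold of 1. The same array held the highest neural values of Tnnt3, 109 against 37.0 to 41.2 on the other 3, and it read 145 for Tnnc2, against 49.3 to 85.2, and 93.2 and 129 for Atp2a1 with 162223_f_at and 98126_s_at. Not all members were raised there: Actn3 162164_f_at read 18.7 against 17.2 to 23.1. Actn3 100879_at read 37.4 against 22.0 to 24.5. Near the floor, Tnni2 read 16.5 against -0.2 to 11.1 and Ckm 161569_f_at read 23.2 against 7.6 to 16.4.

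**Figure D5:**
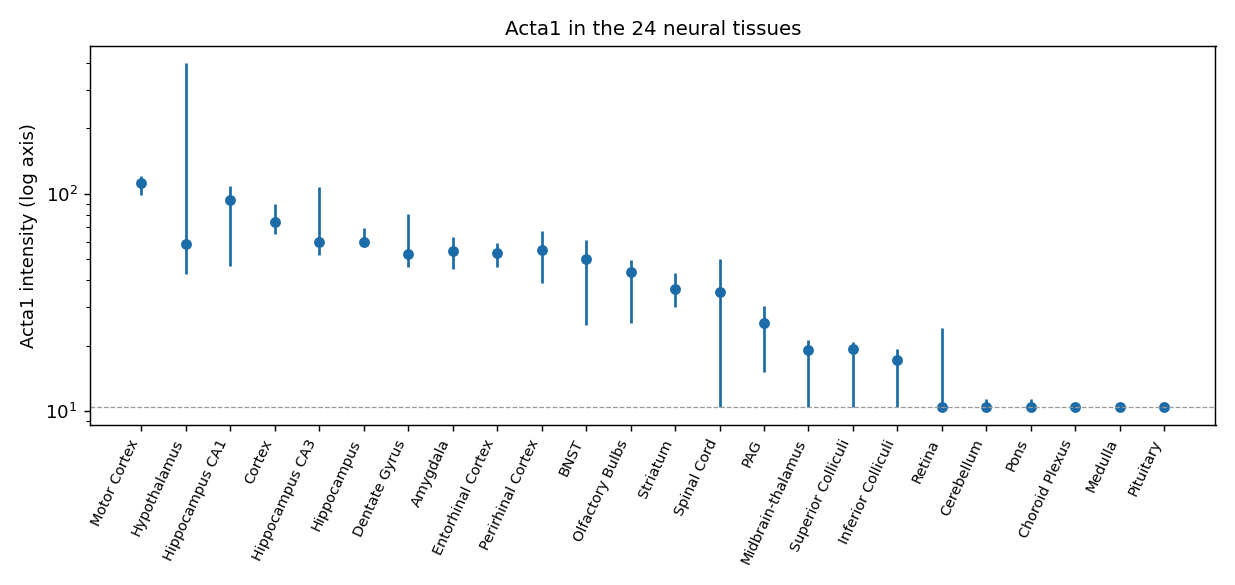
Acta1 intensity in the 24 neural tissues, with a point at the median, a line over the range of the arrays and a dashed line at the floor of 10.4. Motor cortex, hippocampus CA1 and cortex lie highest, the pituitary, medulla and choroid plexus lie at the floor, where values below it are drawn, and the long line in hypothalamus is 1 array at 398.

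Strain is the study's other condition, and none of the 9 probe sets passed a strain test across body tissues. In 129 against B6 with limma, 0 of 9 were called at a 1.5-fold change, where 1.28% of all probe sets were higher and 2.30% lower, and 0 of 9 had an unadjusted p under 0.05, with values from 0.421 to 0.946. The limma F test over 5 strains called 0 of 9, where 13.5% of all were called, and at an unadjusted p under 0.05 Actn3 162164_f_at alone passed (adjusted p = 0.137). In neural tissues 0 of 3 tested were called between 129 and B6, where 0.692% of all were higher and 1.77% lower. With limma, Acta1 differed by 0.20 (adjusted p = 0.195), Tnnc2 by -0.15 (adjusted p = 0.166) and Atp2a1 by -0.02 (adjusted p = 0.887), none with an unadjusted p under 0.05. These tests average over tissues, so an array that differs in 1 tissue, such as the DBA brown fat array, adds to their spread.

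Outside the 7 genes, those whose mean log2 levels over the 34 tissues ran most like the members' were Myh1 (Pearson r = 0.969), Mylpf (0.963), Dsc3 (0.947), Casq1 (0.945), Tbx15 (0.939), Cacna1s (0.931), Cacng1 (0.915), Kcna7 (0.912), Myl1 (0.905) and Wnt11 (0.904). Muscle alone fixes much of this order, and Dsc3 is near the floor everywhere, with a highest tissue mean of 3.65 on the log2 scale. Over the 143 arrays without muscle the leading genes were Myh1 (0.887), Mylpf (0.833), Myl1 (0.800), Casq1 (0.783), the calcium store of fast fibres, Mb (0.653), Ucp1 (0.651), the uncoupling protein of brown fat, Cacna1s (0.650), Myl2 (0.623), Ckmt2 (0.621) and Cox8b (0.621). These correlations are descriptions over points that share tissues, strains and arrays. Over the 34 tissue means, Acta1 followed the mean of the 7 members least closely (0.816), then Ckm (0.908), and the other 5 lay between 0.958 and 0.972. Over the 143 arrays without muscle the order of these 2 was turned, with Ckm at 0.750 and Acta1 at 0.777, and the other 5 lay between 0.827 and 0.920.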

How the data were processed

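The 7 genes, the gene lists and the comparisons were chosen with earlier results of these data known. Total RNA was isolated with TRIzol and RNeasy kits and labelled with biotin, per the labels' protocols. The deposited table holds 1 linear intensity per probe set and array, with 5.99% of values below 0. How the authors computed, background-corrected and scaled it was not stated in the sources used. Each array's 75th percentile lay between 165 and 184, so no further scaling was applied, although the array medians ran from 38.4 to 68.1. Control probe sets (66) and 2 neural arrays with identical values under different labels were left out, which left 148 arrays. Precision is limited by how many arrays a tissue has. Of the probe sets, 10833 name 1 gene, 396 several and 1193 none.

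Intensities were floored at the 20th percentile (10.4) and put on the log2 scale. Probe sets with a tissue mean above the median log2 value of 5.734 in at least 1 tissue were tested with limma 3.58.1 in R 4.3.3 (8921 in 50 body arrays, 8501 in 98 neural arrays), with tissue and strain terms, a mean-variance trend and Benjamini-Hochberg adjustment. Calls needed an adjusted p under 0.05 with a log2 difference over 1, or a 1.5-fold change between strains. The fit was tested on simulated data. Strain labels written B6 and BL6 were read as 1 strain. The 7 genes were named throughout; from each list, up to 4 called genes with the largest difference and any called against the rest were named, with the 15 largest differences on arrays where at least 4 of the 7 genes stood 4-fold apart and the 10 most alike profiles. Slow and smooth muscle genes named by strain were chosen after their values were seen. Alternatives were another floor, quantile normalization, no filter, 1 probe set per gene, a robust prior, no strain term and leaving out arrays.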

Additional observations from a re-analysis of the deposited data

Results flagged for a closer look

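Of 202 groups of 4 to 7 arrays that were checked, 12 held 1 array far from the others by Dixon's criterion. Chance gives about 1 in 20, so the number flagged is close to that share. The groups are not independent, because the probe sets share the same arrays. Of the 12, 7 were in body tissues. In brown adipose tissue the DBA array was low for Acta1 (14.4, others 4750 to 7611), Atp2a1 162223_f_at (12.9, others 1223 to 2838) and Tnnc2 (81.8, others 722 to 1411). In thymus the C3H array was high for Actn3 100879_at (544, others 42.5 to 61.5) and Tnnc2 (862, others 48.5 to 81.1). The AJ array was low for Acta1 in white adipose tissue (76.1, others 524 to 1037) and for Actn3 162164_f_at in muscle (4010, others 4914 to 5193).

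The other 5 were neural and dim. A 129 hypothalamus array was high for Tnnt3 (109, others 37.0 to 41.2) and a 129 hippocampus CA3 array for Tnnc2 (92.7, others 46.5 to 55.0). A B6 superior colliculi array was high for Atp2a1 162223_f_at (30.5, others 2.3 to 12.3) and a B6 pons array for Atp2a1 98126_s_at (60.0, others 44.2 to 45.9). A DBA hippocampus CA1 array was high for Actn3 162164_f_at (51.0, others 17.1 to 27.1).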

How the results depend on the processing

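Counts of called probe sets kept within 1.5 times of the reported value for muscle against the other tissues, heart against muscle, brown fat against white fat or the reference organs, heart against the reference organs, and the 3 strain tests, under each alternative run for them. In thymus the 7 calls became 3 with the floor at the 40th percentile and 3 without the C3H thymus and 129 adrenal arrays, and ran from 2 to 7 with 1 array left out. In adrenal the 1 call became 2 with quantile normalization and 0 without those 2 arrays (1 array left out: 0 to 7). In white fat the 1 call became 2 without those 2 arrays (1 array left out: 1 to 2). The 14 neural calls became 1 with the floor at the 40th percentile. With quantile normalization the median share of muscle rose to 11.5% on the C3H thymus array and 8.6% on the 129 adrenal array. The cause was not tested where an alternative changed the floor or scaling. Replicate numbers were given in order of deposit and pair no samples, and strain is already a term of the fit. The titles' own numbers, whose meaning is not given, repeat within a strain for 22 of the 50 body arrays; with strain and number as a random replicate block, chosen after seeing the data, the consensus correlation was 0.0396 and each of the 8 tissue comparisons and 2 body strain tests called the same probe sets (9 in muscle, 7 in thymus, 1 in adrenal). Values near the floor of 10.4 have no order, which limits the thymus, adrenal and neural counts.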
